A study of Homo sapiens with 6 samples.

Results

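The genes examined here make cholesterol and fatty acids or control how much of them a cell makes. The list held 33 genes, of which 31 had at least 10 counts in at least 3 of the 6 libraries, out of 62754 genes in the count table. The remaining members, TM7SF2 and ABCG1, fell below that count and were not tested. TM7SF2, a sterol reductase, had 5, 10 and 9 counts in CP+siNC and 8, 5 and 13 in CP+siNAT10. ABCG1, a cholesterol exporter, had 0, 1 and 1 counts in CP+siNC and 0, 1 and 3 in CP+siNAT10.

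Cells build cholesterol from acetyl-CoA through mevalonate, isoprenoid diphosphates and squalene, and build fatty acids from the same acetyl-CoA through malonyl-CoA. Many of these enzymes are transcribed under the control of the sterol regulatory element-binding proteins SREBP1 and SREBP2, membrane-bound factors that SCAP escorts from the endoplasmic reticulum when sterols run low and that the INSIG proteins hold back when sterols are plentiful. In the kidney tubule, lipid synthesis supplies the membranes of a dense brush border and basolateral folds, and lipid accumulation accompanies several kinds of tubular injury.

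The study asked how the transcripts of Cisplatin-injured tubular cells depend on NAT10, an acetyltransferase that acts on RNA and protein. HK-2, an established line derived from human proximal tubule epithelium, received Cisplatin, a platinum compound that damages DNA, together with siRNA. CP+siNC denotes Cisplatin with negative control siRNA and CP+siNAT10 denotes Cisplatin with siRNA against NAT10, with 3 libraries in each group. Neither cells without Cisplatin nor doses and times are given in the labels of these samples, so the comparison is between siRNAs under Cisplatin.

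Total counts were 19321665, 21602988 and 19464027 in CP+siNC and 20793709, 21531774 and 25192736 in CP+siNAT10. Levels are given as CPM, counts scaled to a common library size by the TMM method. Where genes are compared with each other, levels are given per length as RPKM, the CPM divided by the gene length of the table in kilobases. Log2 fold changes are of CP+siNAT10 over CP+siNC, with standard errors (SE), and 19874 genes were tested. Genes are called changed at a Benjamini-Hochberg adjusted p under 0.05 in the edgeR quasi-likelihood test. The labels do not state whether the libraries of a group came from separate cultures, so p-values measure only the spread between these samples.

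NAT10, the targeted gene, was read first in each library. It stood at 75.8, 71.4 and 73.2 CPM in CP+siNC and at 41.3, 40.5 and 42.4 CPM in CP+siNAT10. The groups did not overlap, and the log2 fold change was -0.82 (SE 0.0426). The cell line was also read against its markers. KRT8, a keratin of simple epithelia, was abundant at 1455 CPM in CP+siNC and 1450.0 CPM in CP+siNAT10. Of the 9 epithelial markers 8 were tested and 6 called, with KRT18 lower at 346 and 269 CPM, KRT7 lower, and EPCAM, CDH2, KRT10 and ITGB4 higher. The untested marker was the cadherin CDH1, which did not pass 0.11 CPM in any library, while the cadherin CDH2 stood at 75.2 and 86.2 CPM. Of 14 proximal tubule markers 6 had enough counts to be tested. The transcription factor PAX8 rose from 31.4 to 47.2 CPM and the glucose transporter SLC5A2 from 9.30 to 11.5 CPM, while the brush border enzyme GGT1 fell from 33.2 to 27.4 CPM. The transporter SLC22A6 had no counts in the 6 libraries, and the receptor LRP2 stayed at or below 0.0475 CPM in each, so the markers of proximal tubule were present only in part.

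Markers of other cells were read as well, and those of leukocytes included an abundant gene. None of the 5 adipocyte markers was tested, their summed level being between 0.0475 and 0.276 CPM per library. Among 6 hepatocyte markers ALB, APOA1 and TTR had no counts, and the tested member, SERPINA1, fell from 12.0 to 8.81 CPM. None of 7 endothelial markers was tested, and their sum did not pass 0.607 CPM in any library. Of 8 fibroblast markers 3 were tested, and COL1A1 rose from 10.5 to 13.6 CPM. The other tested fibroblast markers, LUM at 11.2 and 11.5 CPM and COL3A1 at 0.416 and 0.690 CPM, were not called. The list of 8 leukocyte markers had 3 tested members and was led by CD68, which rose from 207 to 272 CPM, while the pan-leukocyte gene PTPRC rose at a far lower level, and stood at 0.425, 0.467 and 0.363 CPM in CP+siNC and at 0.475, 1.33 and 0.671 CPM in CP+siNAT10. The summed leukocyte level was 210.0, 199 and 217 CPM in CP+siNC and 289, 266 and 269.5 CPM in CP+siNAT10. The part of these shifts in the results below was not tested. In bulk RNA, fewer cells expressing a gene and less of its RNA per cell cannot be told apart.

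Under CP+siNAT10 the pathway did not move as a block. The fatty acid genes ACACA, FASN, SCD and ACLY and the regulators SREBF1 and INSIG1 rose, while IDI1, SC5D, INSIG2 and STARD4, which act at separate points of sterol synthesis, its control and sterol transport, fell to between 51.8% and 66.8% of their control means. Within these groups others went the other way. PMVK, FDPS, SQLE, LSS and DHCR7 of cholesterol synthesis rose, and the fatty acid gene FADS1 fell.
Of the 31 tested genes 22 were called, which is 71.0%, against 44.1% of all tested genes. Of these, 12 were higher, against a background of 21.8%, and 10 were lower, against 22.3%. The members are well expressed genes, and calls are more frequent among such genes. The levels that follow were chosen after the values were seen. A mean of 2 CPM was reached by all 31 members and by 15087 tested genes, of which 53.2% were called. At a mean of at least 10 CPM the share was 61.7% of 10076 genes and 79.2% of the 24 members at that level.

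Most of the changes were small. A log2 fold change of at least 0.4 in size was reached by 8 called members, against 17.8% of all tested genes, and a size over 1 by ACACA alone, against 2.33%. The median log2 fold change of the members was 0.05, with a range from -0.95 to 1.24, beside a median of 0.01 over all tested genes. The groups did not overlap for 23 members, 12 higher and 11 lower in CP+siNAT10, where 51.4% of all tested genes showed no overlap.

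**Figure D1:**
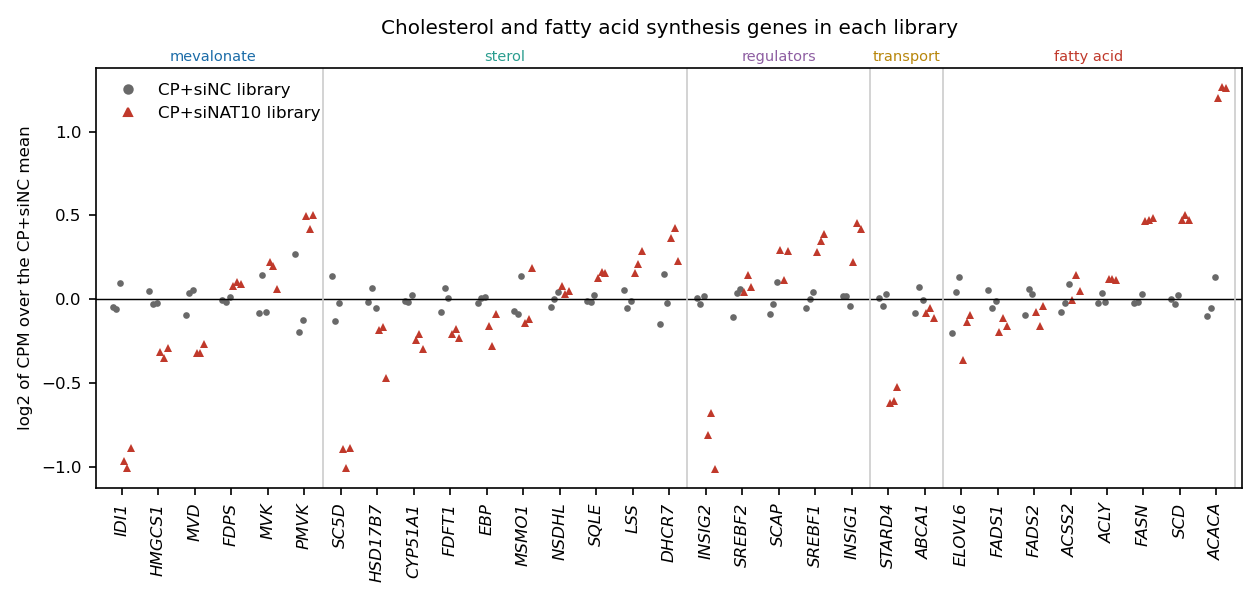
Level of each of the 31 tested genes in each library, as log2 of its CPM over the mean of CP+siNC; circles are CP+siNC and triangles CP+siNAT10 libraries, and genes are grouped by role and ordered by fold change. The triangles of IDI1, SC5D and INSIG2 lie farthest below the circles, and those of ACACA farthest above.

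The mevalonate branch carries acetyl-CoA to farnesyl diphosphate. All 6 of its members were tested and 5 were called, 2 higher and 3 lower, with a median log2 fold change of -0.11. IDI1, which interconverts the isoprenoid units isopentenyl and dimethylallyl diphosphate, changed most. It was measured at 44.0, 43.6 and 48.4 CPM in CP+siNC and at 23.2, 22.6 and 24.5 CPM in CP+siNAT10. Its CP+siNAT10 libraries all lay at about the same reduced level, 51.8% of the control mean. The log2 fold change was -0.95 (SE 0.0534, adjusted p = 2.0e-14, edgeR quasi-likelihood test with Benjamini-Hochberg adjustment).

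PMVK, the kinase that acts on phosphomevalonate directly upstream of MVD, went the other way. Its values were 8.23, 5.98 and 6.28 CPM in CP+siNC and 9.64, 9.15 and 9.66 CPM in CP+siNAT10. The groups did not overlap, with replicate 1 of CP+siNC the closest to the CP+siNAT10 libraries. The log2 fold change of PMVK was 0.48 (SE 0.104, adjusted p = 0.000368 in the same edgeR test).

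HMGCS1, which forms HMG-CoA at the entry to the branch, and MVD, the decarboxylase that yields isopentenyl diphosphate, fell with log2 fold changes of -0.32 (SE 0.0386) and -0.30 (SE 0.0623). MVK, the kinase between them, had a log2 fold change of 0.15 (SE 0.0964) and was not called. FDPS, which joins the units into farnesyl diphosphate, was the most abundant gene of the branch per length, at 23.0 and 24.4 RPKM. It was measured at 85.2, 84.5 and 86.3 CPM in CP+siNC and at 90.1, 91.7 and 90.9 CPM in CP+siNAT10. These groups were apart but close. Its log2 fold change was 0.09 (SE 0.0363, adjusted p = 0.0422, edgeR quasi-likelihood with Benjamini-Hochberg adjustment), and the call was lost in 12 of 15 alternative analyses, among them the omission of each of the 6 libraries in turn, with adjusted p-values up to 0.140.

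Downstream, 11 listed genes turn farnesyl diphosphate into squalene, lanosterol and cholesterol. Of the 10 tested, 7 were called, 3 higher and 4 lower, with a median log2 fold change of -0.09. SC5D, a desaturase of a late sterol intermediate, stood at 24.0, 19.9 and 21.5 CPM in CP+siNC and at 11.8, 10.9 and 11.8 CPM in CP+siNAT10. The control libraries spread over several CPM, yet the lowest of them lay far above all CP+siNAT10 libraries. The log2 fold change of SC5D was -0.92 (SE 0.0740, adjusted p = 3.2e-11 by edgeR quasi-likelihood and Benjamini-Hochberg).

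EBP, the sterol isomerase that precedes SC5D in the pathway, was the most abundant sterol gene per length, at 42.3 RPKM in CP+siNC and 37.6 RPKM in CP+siNAT10. Its values were 73.7, 75.2 and 75.8 CPM in CP+siNC against 67.1, 61.8 and 70.3 CPM in CP+siNAT10. The CP+siNAT10 libraries were lower and more scattered, and the log2 fold change was -0.17 (SE 0.0435). FDFT1, the squalene synthase, and CYP51A1, the lanosterol demethylase, also fell, with log2 fold changes of -0.21 and -0.25. SQLE, the squalene epoxidase, and LSS, the cyclase that makes lanosterol, rose by 0.15 and 0.23 on the same scale, as did DHCR7, the reductase that follows SC5D, by 0.33. Neighbouring steps therefore changed in opposite directions. NSDHL and MSMO1, which remove methyl groups from sterols, had log2 fold changes of 0.05 and 0.00 to 2 decimals and were not called. HSD17B7, a sterol ketone reductase, was at -0.28 (SE 0.147) with groups that did not overlap, and did not pass the test. Its value was -0.17 without CP+siNAT10 replicate 3.

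Among the 5 regulators 4 were called, 3 higher and 1 lower, with a median log2 fold change of 0.24. SREBF1 encodes SREBP1, which favours fatty acid genes. It was measured at 16.9, 17.6 and 18.1 CPM in CP+siNC and at 21.4, 22.3 and 23.0 CPM in CP+siNAT10. All CP+siNAT10 libraries were above all control libraries, with a log2 fold change of 0.34 (SE 0.0610, adjusted p = 3.51e-05, edgeR quasi-likelihood test with Benjamini-Hochberg adjustment). SREBF2 encodes SREBP2, which favours cholesterol genes, and its values were 17.3, 19.2 and 19.4 CPM in CP+siNC and 19.2, 20.6 and 19.6 CPM in CP+siNAT10. These groups overlapped, and the log2 fold change of 0.09 (SE 0.0637) did not pass the test. Without CP+siNC replicate 1 it was 0.04, and SREBF2 was not called in any alternative.

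The INSIG genes, whose products anchor the SCAP-SREBP complex in the endoplasmic reticulum, changed in opposite directions. INSIG1, itself a known SREBP target, stood at 13.5, 13.5 and 12.9 CPM in CP+siNC and at 15.5, 18.3 and 17.8 CPM in CP+siNAT10. It was also the most abundant regulator per length, at 3.65 and 4.71 RPKM, and rose with a log2 fold change of 0.37 (SE 0.0733, adjusted p = 0.00012 in the edgeR quasi-likelihood test with Benjamini-Hochberg adjustment). INSIG2 stood at 5.52, 5.37 and 5.56 CPM in CP+siNC and at 3.13, 3.43 and 2.72 CPM in CP+siNAT10. The control libraries were nearly level and the CP+siNAT10 libraries were all lower. INSIG2 fell with a log2 fold change of -0.83 (SE 0.128, adjusted p = 4.04e-06 in the same test from edgeR). Per length INSIG2 was at 1.39 RPKM in CP+siNC and 0.784 RPKM in CP+siNAT10.

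SCAP, the escort of the SREBPs, was measured at 7.75, 8.08 and 8.83 CPM in CP+siNC and at 10.1, 8.92 and 10.1 CPM in CP+siNAT10. The groups nearly met, at 8.83 and 8.92 CPM. Its log2 fold change of 0.24 (SE 0.0911) gave an adjusted p of 0.0346 in the edgeR quasi-likelihood test with Benjamini-Hochberg adjustment. The call was lost in 5 of 15 alternatives, with DESeq2 and without CP+siNC replicate 1, CP+siNC replicate 2, CP+siNAT10 replicate 1 or CP+siNAT10 replicate 3, where the adjusted p was 0.151, 0.136, 0.0969, 0.0981 and 0.115, and over all alternatives it ran from 0.0160 to 0.151.

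Of the sterol transport genes, STARD4, which shuttles cholesterol between membranes, was at 42.5, 41.1 and 43.3 CPM in CP+siNC and at 27.5, 27.8 and 29.4 CPM in CP+siNAT10. Replicates lay close together in both groups, and the log2 fold change was -0.58 (SE 0.0491, adjusted p = 9.48e-11, edgeR quasi-likelihood with Benjamini-Hochberg adjustment). ABCA1, which exports cholesterol to lipoproteins, was the most abundant of these genes per length, at 9.77 and 9.24 RPKM. It was measured at 105, 117 and 111 CPM in CP+siNC and at 105, 107 and 103 CPM in CP+siNAT10. The groups overlapped and ABCA1 was not called, with a log2 fold change of -0.08 (SE 0.0389). Without CP+siNC replicate 1 it was called, at -0.12, with an adjusted p of 0.0175 from edgeR quasi-likelihood and Benjamini-Hochberg, where the adjusted p over all alternatives ran up to 0.384.

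The fatty acid genes held the largest rise of the members. Of 8 tested, 5 were called, 4 higher and 1 lower, with a median log2 fold change of 0.09. ACACA, the acetyl-CoA carboxylase that commits acetyl-CoA to fatty acids by making malonyl-CoA, was at 6.37, 6.59 and 7.48 CPM in CP+siNC and at 15.6, 16.4 and 16.3 CPM in CP+siNAT10. All CP+siNAT10 libraries lay far above all control libraries, at a mean of 237% of control. The log2 fold change was 1.24 (SE 0.0835, adjusted p = 8.17e-13, edgeR quasi-likelihood test with Benjamini-Hochberg adjustment), and it ran from 1.20 to 1.31 over the 15 alternatives.

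FASN, the synthase that extends malonyl-CoA to palmitate, followed with 63.9, 64.1 and 66.3 CPM in CP+siNC and 89.6, 89.9 and 90.5 CPM in CP+siNAT10. SCD, the desaturase that makes monounsaturated fatty acids, had 111, 109 and 114 CPM in CP+siNC and 154, 158 and 155 CPM in CP+siNAT10. For both genes the spread within a group was small against the distance between groups. Their log2 fold changes were 0.48 (SE 0.0378) for FASN and 0.48 (SE 0.0342) for SCD, with adjusted p-values of 2.66e-11 and 2.49e-12 in the edgeR quasi-likelihood test with Benjamini-Hochberg adjustment. Per length, ACACA remained the lowest of the 3 after its rise, at 1.24 RPKM against 9.66 RPKM for FASN and 29.7 RPKM for SCD in CP+siNAT10.

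ACLY, which releases acetyl-CoA from citrate, was the most abundant fatty acid gene per length, at 40.2 and 43.7 RPKM. It was measured at 207, 215 and 207 CPM in CP+siNC and at 228, 228 and 227 CPM in CP+siNAT10. The CP+siNAT10 libraries were almost level and above all controls, and the log2 fold change was 0.12 (SE 0.0325). ACSS2, which makes acetyl-CoA from acetate, had a log2 fold change of 0.07 and was not called. FADS1, a desaturase of polyunsaturated fatty acids, fell with a log2 fold change of -0.15 (SE 0.0372). Its neighbour FADS2, another such desaturase, and the elongase ELOVL6 were at -0.09 and -0.19 and were not called.

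**Figure D2:**
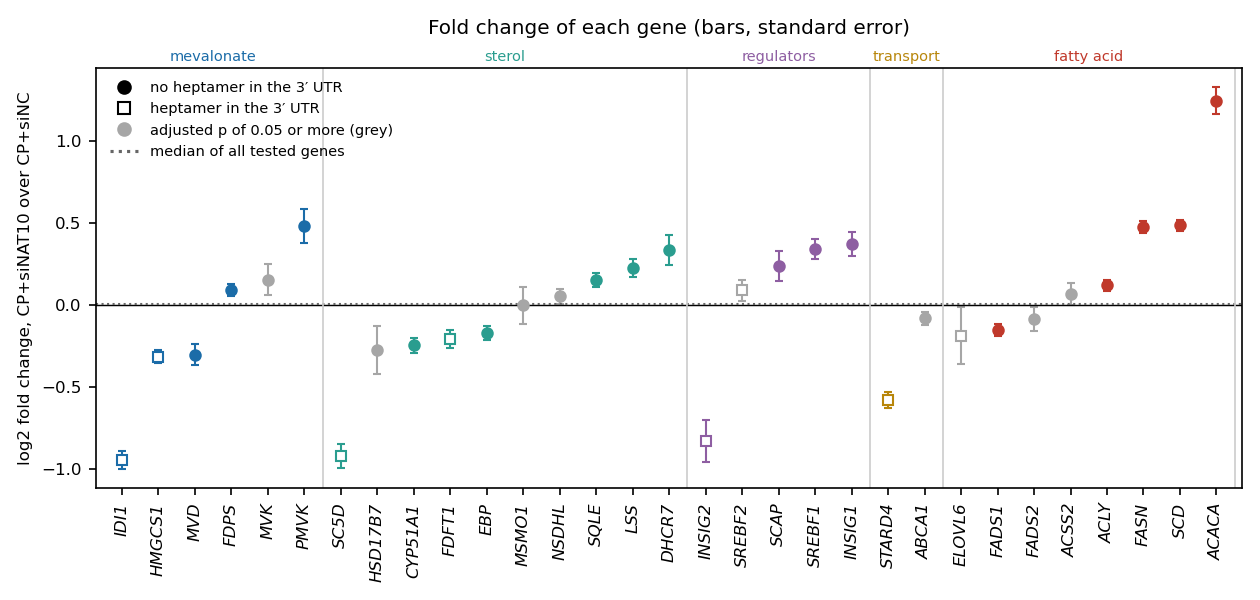
Log2 fold change of CP+siNAT10 over CP+siNC for each of the 31 tested genes, with its SE as a bar; squares mark genes with a listed heptamer in the longest 3′ UTR, grey marks an adjusted p of 0.05 or more, and the dotted line is the median of all tested genes. ACACA stands at 1.24, and the squares include the 4 lowest genes, IDI1, SC5D, INSIG2 and STARD4.

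Summed per length, these opposite changes partly cancelled. The fatty acid genes added up to 85.1, 85.7 and 85.9 RPKM in CP+siNC and to 99.0, 101 and 99.4 RPKM in CP+siNAT10. The mevalonate genes added up to 60.5, 57.8 and 59.6 RPKM in CP+siNC and to 54.8, 54.3 and 55.6 RPKM in CP+siNAT10. The sums of the fatty acid genes were thus higher, and those of the mevalonate genes lower, in each CP+siNAT10 library than in any control library. The sterol genes averaged 102 ± 1.70 RPKM (SD, n = 3) in CP+siNC and 96.1 ± 2.38 RPKM in CP+siNAT10, the regulators 10.8 ± 0.224 and 12.2 ± 0.497 RPKM, and the transport genes 17.2 ± 0.426 and 14.2 ± 0.123 RPKM. The most abundant genes weigh most in such sums. EBP alone went from 42.3 to 37.6 RPKM in the sterol sum, and SCD alone from 21.2 to 29.7 RPKM in the fatty acid sum. The sums hold only the tested members, and other genes of sterol and fatty acid synthesis are not in them. No test was run on these sums.

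**Figure D3:**
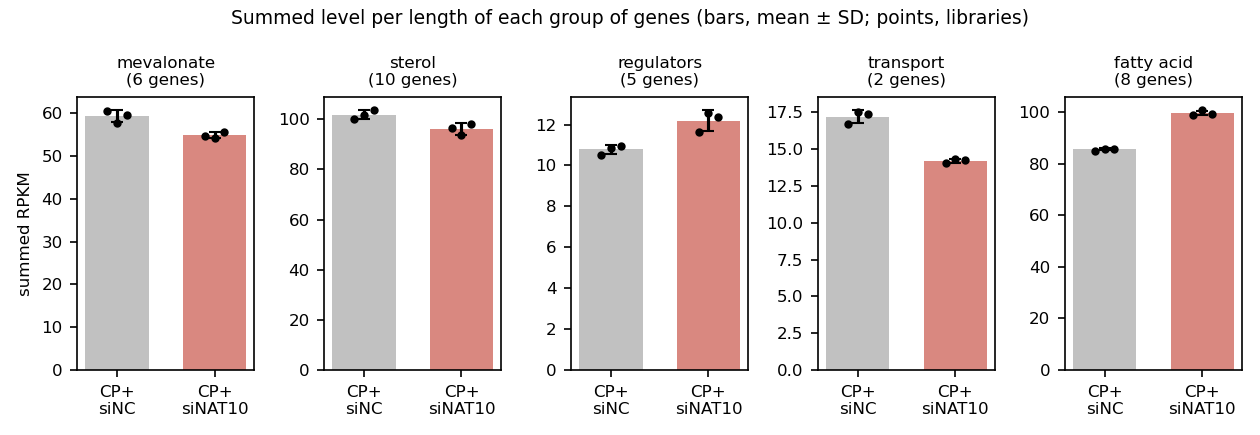
Summed RPKM of the tested genes of each role; bars are the mean of 3 libraries with the SD, points are libraries, and each panel has its own axis from 0. The fatty acid sum is higher in CP+siNAT10, at 99.7 against 85.6 RPKM, and the transport sum lower, at 14.2 against 17.2 RPKM.

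The genes that fell were set beside a sequence feature. The heptamer GACTATC, its shift by 1 base to ACTATCA, and the heptamer CATATTC had been found in these same libraries to be frequent in the 3′ UTRs of genes lower in CP+siNAT10, so their presence here is a description and no independent evidence. In the longest 3′ UTR of each gene in GENCODE 29, at least 1 of them occurred in 18.7% of 13327 tested protein-coding genes, in 27.7% of those called lower and in 14.0% of those called higher. Among the members the heptamers occurred in 6 of the 10 called lower, in none of the 12 called higher, and in 2 of the 9 not called, SREBF2 and ELOVL6. The 6 were IDI1, SC5D, INSIG2, STARD4, HMGCS1 and FDFT1, which include the 4 members with the lowest fold changes. Of the 23 members without a heptamer, 12 were higher and 4 lower, the latter being MVD, CYP51A1, EBP and FADS1, beside 3140 higher and 2526 lower among all 10840 tested protein-coding genes without one. The sequence of the NAT10 siRNA is not given in the sources used here, and whether siRNA pairing has a part in these falls was not tested.

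The sites are shown since the 4 largest falls of the list lie in genes that hold them, and those of HMGCS1 are added for the entry to the mevalonate branch. Each is given 5′ to 3′ on the transcript with the heptamer in capitals, within the 3′ UTR exon, with its place on GRCh38 from GENCODE 29.
IDI1 at chr10:1041054-1041078, minus strand: tcatttggtACTATCAttaatgtat
SC5D at chr11:121308081-121308105, plus strand: gtgtaataaGACTATCgtcttccta
SC5D at chr11:121308124-121308148, plus strand: tctggacacACTATCAcctattaca
INSIG2 at chr2:118109703-118109727, plus strand: aaagcaattACTATCAgactgagat
INSIG2 at chr2:118109496-118109520, plus strand: tggtttaaaCATATTCttagctaat
STARD4 at chr5:111498457-111498481, minus strand: aggaagtctCATATTCtactgttct
HMGCS1 at chr5:43290971-43290995, minus strand: agcctggatGACTATCgtgtacttg
HMGCS1 at chr5:43289962-43289986, minus strand: acaaacaaaACTATCAcacaggata
SC5D, INSIG2 and HMGCS1 each held 2 sites, but so did SREBF2, and ELOVL6 held 4, neither of which was called. In the count table INSIG2 ends at position 118108372, before its sites, which lie in a longer 3′ UTR that GENCODE 29 annotates.

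Promoters were read because several known SREBP targets moved in opposite directions. RefSeq windows of 300 bases, from 250 before to 50 after an annotated start on GRCh38.p14, matched 28 members with 39 windows, and FASN, FDFT1 and SQLE had no entry. Both strands were searched for TCACNCCAC, a form of the sterol regulatory element, CCAAT, the box bound by NF-Y, GGGCGG, the GC box bound by Sp factors, and CACGTG, the E-box. CCAAT occurred in 24 of the 39 windows, 61.5%, against 34.6% of 35116 windows of all genes, and GGGCGG in 35 windows, 89.7%, against 45.0%. CACGTG occurred in 6 windows, 15.4%, against 7.26%, with overlapping windows of SC5D counted separately, and TCACNCCAC in 1 window, that of SREBF2, 2.56% against 1.13%. Tested genes have more GC boxes and E-boxes than all genes, with GGGCGG in 64.9% of their windows, CCAAT in 34.5%, CACGTG in 9.40% and TCACNCCAC in 1.10%. By direction, CCAAT was present for 7 of 10 members called higher and 6 of 9 called lower, and GGGCGG for all 10 and all 9. CACGTG was present for 3 of the 10 and 1 of the 9, and TCACNCCAC for none of either. Counted per gene in the same way, CCAAT was present for 42.5%, GGGCGG for 74.8% and CACGTG for 12.4% of 11762 tested genes with a window. Differences between these counts were not tested, and a match is not evidence of binding.

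Windows of a gene that rose in fatty acid synthesis, a gene that fell in the mevalonate branch, a regulator that rose and the regulator with the sterol element form are shown on the strand of the gene, with all matches of the 4 motifs on either strand in capitals.
SCD, plus strand, chr10:100346983-100347282: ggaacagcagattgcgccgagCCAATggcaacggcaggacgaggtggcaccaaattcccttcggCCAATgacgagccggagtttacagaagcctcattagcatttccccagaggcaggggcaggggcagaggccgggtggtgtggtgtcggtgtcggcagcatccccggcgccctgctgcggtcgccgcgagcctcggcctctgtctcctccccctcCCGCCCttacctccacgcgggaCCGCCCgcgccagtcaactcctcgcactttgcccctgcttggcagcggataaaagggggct
IDI1, minus strand, chr10:1048837-1049136: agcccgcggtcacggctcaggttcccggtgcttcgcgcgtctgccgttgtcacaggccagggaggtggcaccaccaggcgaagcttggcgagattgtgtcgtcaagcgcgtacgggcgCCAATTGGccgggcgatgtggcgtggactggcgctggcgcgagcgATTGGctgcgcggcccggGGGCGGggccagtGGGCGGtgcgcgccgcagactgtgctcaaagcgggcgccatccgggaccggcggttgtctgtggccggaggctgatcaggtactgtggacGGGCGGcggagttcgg
INSIG1, plus strand, chr7:155297628-155297927: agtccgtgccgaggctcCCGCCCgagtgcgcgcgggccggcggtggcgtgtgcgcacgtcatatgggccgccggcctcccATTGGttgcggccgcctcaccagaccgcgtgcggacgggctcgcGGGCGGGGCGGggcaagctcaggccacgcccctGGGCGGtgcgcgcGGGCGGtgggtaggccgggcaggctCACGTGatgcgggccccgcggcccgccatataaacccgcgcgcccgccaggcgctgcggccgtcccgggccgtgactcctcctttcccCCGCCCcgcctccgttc
SREBF2, plus strand, chr22:41832855-41833154: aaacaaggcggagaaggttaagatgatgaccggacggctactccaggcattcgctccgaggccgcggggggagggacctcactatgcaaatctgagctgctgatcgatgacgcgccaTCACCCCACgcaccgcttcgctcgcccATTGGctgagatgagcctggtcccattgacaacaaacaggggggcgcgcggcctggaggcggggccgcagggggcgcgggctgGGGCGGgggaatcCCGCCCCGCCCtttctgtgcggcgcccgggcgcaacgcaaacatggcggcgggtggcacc
SCD held 2 CCAAT matches, 229 and 186 bases before the start, and IDI1 held 3, of which a facing pair shared 2 bases. The window shown for IDI1 has the most CCAAT matches among its 3 windows, the others holding 2 and 0. INSIG1 held CACGTG 55 bases before its start, and SREBF2 held the sterol element form 133 bases before its start, with CCAAT on the other strand 106 bases before it.

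The wider pathway was read from 7 further lists with 117 tested genes of 127. Of these 74 were called, 63.2%, with 48 higher and 26 lower, against 44.1% called, 21.8% higher and 22.3% lower among all tested genes. At a mean of at least 10 CPM, 66 of 89 list genes were called, 74.2%, against 61.7% of the tested genes at that level. There, 46.1% of the list genes were higher and 28.1% lower, against 30.7% and 31.1% of the tested genes at that level. Other genes of sterol synthesis and uptake had 7 of 11 called, 5 higher and 2 lower. The isoprenoid branch, which passes farnesyl diphosphate on to prenyl groups, dolichol and ubiquinone, had 10 of 13 called, 8 higher and 2 lower. In it ZMPSTE24, a protease that matures prenylated lamin A, fell with a log2 fold change of -0.55 from 68.4 to 46.6 CPM.

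Genes that process SREBPs or degrade sterol-regulated proteins had 14 of 19 called, 8 higher and 6 lower. MBTPS2, the protease that makes the last cut to free SREBPs from the membrane, fell from 13.5 to 7.49 CPM, with a log2 fold change of -0.85 (SE 0.0837, adjusted p = 1.88e-09, edgeR quasi-likelihood with Benjamini-Hochberg adjustment). MBTPS1, the protease of the preceding cut, was at 106 CPM in both groups and was not called. Genes of cholesterol movement and storage had 13 of 22 called, 6 higher and 7 lower. Among them the lipid exchange protein OSBPL8 fell with a log2 fold change of -0.73, from 103 to 62.0 CPM, the cholesteryl ester hydrolase NCEH1 fell at -0.54, and OSBPL1A, of the same family as OSBPL8, rose at 0.51.

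Of the LXR axis, nuclear receptors of oxysterols with their partners and targets, 7 of 11 were called, 6 higher and 1 lower. Other genes of fatty acid synthesis and activation had 18 of 32 called, 11 higher and 7 lower. ME1, the malic enzyme that supplies NADPH to fatty acid synthesis, rose from 8.18 to 13.0 CPM, with a log2 fold change of 0.67, and ACSS1, the mitochondrial acetyl-CoA synthetase, rose at 0.52. ELOVL4, an elongase of very long chains, and CBR4, a reductase of mitochondrial fatty acid synthesis, fell at -0.60 and -0.55. The AMPK list, whose kinase inhibits ACACA by phosphorylation, had 5 of 9 called, 4 higher and 1 lower, with PRKAG2, a regulatory subunit, rising at 0.56. The median log2 fold change over the 117 genes was 0.10.

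Some counts are less certain than others. FADS1 and FADS2 lie on opposite strands and share 490 exon bases, IDI1 shares 643 with the antisense gene IDI2-AS1, which was also called lower, and HMGCS1 shares 703 with an unnamed opposite-strand gene that was called lower too. SREBF1 shares 556 with the opposite-strand gene RAI1, which was called higher, as SREBF1 was. Opposite-strand partners of other members were not called or not tested. Among them, RUSC1-AS1 shares 693 bases with FDPS and STARD4-AS1 shares 124 with STARD4, and neither was called. The libraries were stranded, but whether the counting used strand is not given in the sources used here, and without strand, reads of such partners cannot be told apart. CYP51A1 shares 2844 of its 3584 exon bases with ENSG00000285772 on the same strand, so its reads may have been split or dropped. ENSG00000285772 was called lower, as CYP51A1 was. A further gene on that strand, ENSG00000285953, shares 99 bases with CYP51A1 and was called higher. Pseudogenes named after members had few counts, the largest share being that of HSD17B7, with 393 counts over the 6 libraries against 138 and 89 for the 2 rows named HSD17B7P2.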

How the data were processed

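RNA of 6 samples of Cisplatin-treated HK-2 cells was sequenced, 3 with negative control and 3 with NAT10 siRNA. The deposited values are raw counts per gene, made by the authors with featureCounts. The stranded library kit adds molecular identifiers meant for correcting duplicates, and the sources used here do not say if copies sharing an identifier were collapsed, so a count may include copies. The submitters' processing notes name Trimmomatic 0.36, STAR 2.5.3a, Subread 1.5.1, edgeR 3.12.1 and GRCh38.

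Here, filterByExpr (minimum count 10, total 15) chose the genes to test. TMM scaling and the quasi-likelihood test of edgeR 4.0.16 in R 4.3.3 gave the comparison, without a replicate term, adjusted by Benjamini-Hochberg over 19874 genes. The common biological coefficient of variation was 3.00%. Chi-square per gene was 1.73 to 2.54 within groups, where counting noise alone gives about 1. The steps were tested on simulated counts, and no values from that test are given here.

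Values per library are printed for NAT10, called members with a log2 fold change of at least 0.4 in size, regulators and the most abundant member of each role per length. Named from other lists are called genes with a size of at least 0.5 and a mean of at least 5 CPM. Some genes of these lists are not reported here, and MBTPS1 was named after its values were seen. Members and lists were chosen with earlier results of these data known. Alternatives were RLE, upper quartile and library size scaling, 3 other filters, DESeq2 1.42.0, limma-voom (limma 3.58.1), a replicate block and the omission of each library. Of the tested genes 95.3% had an identifier in GENCODE 29, and positions overlapped for 99.7% of those. Python 3.11.15, pandas 2.3.3 and matplotlib 3.10.9 served the sequence counts and figures.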

Additional observations from a re-analysis of the deposited data

How the results depend on the processing

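Over 15 alternatives, none of the 31 tested members reversed a called direction. FDPS lost its call in 12 and SCAP in 5, and ABCA1 gained a call in 1. The number of members called was 20 to 21 when each library was left out in turn. The number of sterol transport genes called was 1 to 2 across these omissions, 2 without CP+siNC replicate 1 because ABCA1 was then called. Scaling by library size only moved the median log2 fold change of the members to 0.090 and that of all tested genes to 0.04. It called 5050 genes higher and 3786 lower over the whole table, against 4331 and 4440, and DESeq2 called 6692 genes in all, against 8771. Without CP+siNC replicate 1 the median of the members was 0.028. With a replicate block, 21 members and 8526 of 19874 genes were called, and FDPS was the only member whose call changed. Deviations of libraries with the same number had correlations of -0.035, 0.018 and -0.15 for numbers 1, 2 and 3. Those of libraries from different groups with unlike numbers ran from -0.13 to 0.15. The ranges are alike, so these values cannot tell whether the numbers pair the samples. The members with the lowest counts were ELOVL6 at about 2 CPM, HSD17B7 and the untested TM7SF2 and ABCG1. Whether depth limited their calls was not tested.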
